A study of Mus musculus with 12 samples.

Results

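Of the 23183 gene symbols listed in every library, 10 are described here as markers of fibroblasts and myofibroblasts: the receptors Pdgfra and Pdgfrb, the contractile genes Acta2 and Tagln, the intermediate filament gene Vim, the matrix genes Fn1 and Postn, the surface protease gene Fap and the proteoglycan genes Dcn and Lum. They were picked by symbol as known markers, with earlier results of these data known, and all 10 were found. The libraries came from the kidney cortex of C57BL/6N mice (C57BL/6 in the sample labels), male and 6 to 7 weeks old at surgery, on day 7 after unilateral ureteral obstruction (UUO), a surgical closure of the ureter on 1 side. Mice were WT (Acot12+/+) or carried a global, germline mutation of Acot12 made with an RNA-guided endonuclease (Acot12-/-), and the obstructed kidney (UUO) was compared with the contralateral kidney (CL). The groups WT CL, WT UUO, Acot12-/- CL and Acot12-/- UUO held 3 libraries each, 12 in all. CL kidneys were controls from operated animals, and no kidney of an unoperated mouse was analysed here. Nothing in the labels says how many animals gave the libraries, so p-values measure the spread between these libraries.

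Interstitial fibroblasts lie between the tubules and the capillaries of the cortex and keep up the matrix there. In an obstructed kidney they divide, and part of them become myofibroblasts, which carry contractile filaments and secrete fibronectin, collagens and matricellular proteins. Platelet-derived growth factors (PDGFs) act through PDGFRα and PDGFRβ on these cells and on pericytes. None of the 10 genes belongs to fibroblasts alone: Acta2 and Tagln are also made by vascular smooth muscle, Pdgfrb by pericytes and mesangial cells, Vim by endothelium, podocytes, leukocytes and injured tubules, and Fn1 by many cells.

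Values are FPKM (fragments per kilobase of transcript, scaled by library). The steps between low values gave the library size used in this scaling. It was 12360000 to 13730000 fragments in WT CL and 13970000 to 16300000 in Acot12-/- CL libraries. In UUO it was larger (21300000 to 23000000 in WT and 18530000 to 21830000 in Acot12-/-). Whether this size is the sequenced depth or a normalised size is not known, so the larger UUO values are not read as deeper sequencing. The targeted gene, Acot12, had 73.8, 52.7 and 78.1 FPKM in WT CL, 9.98, 16.7 and 21.2 in WT UUO, 9.15, 9.01 and 6.80 in Acot12-/- CL libraries, and 3.28, 1.80 and 3.86 in Acot12-/- UUO, so each mutant library lay below each WT library of the same kidney. One library stood apart. On the second principal component, with 9.46% of the variance, Acot12-/- CL replicate 2 lay at −52.3 and replicates 1 and 3 of that group at 22.2 and 33.0. The fragment length, fitted together with the library size and not measured, was also the shortest in this library (168 bases against 200 to 246 in the others). Marker results that its removal changes are given with and without it.

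Per kilobase, Vim (47.7 ± 14.0), Tagln (47.2 ± 4.11) and Dcn (47.0 ± 6.72) were the most abundant of the 10 in WT CL cortex (mean FPKM ± SD, n = 3), at levels that could not be ranked within their spread. Next came Acta2 with 17.0 ± 5.67, Pdgfrb with 8.21 ± 0.117 and Fn1 with 7.29 ± 1.79 FPKM, of which Pdgfrb and Fn1 overlapped. Pdgfra (3.94 ± 0.696), Lum (2.30 ± 0.530) and Postn (1.87 ± 0.781) were low, and Fap was lowest, at 0.098 to 0.211 FPKM. All 10 were listed above 0 in each WT CL library, Fap at 3 to 7 fragments. In WT UUO cortex Tagln (130 ± 12.2) and Vim (126 ± 13.1) stood above Dcn (53.1 ± 8.54), and Fn1 (33.4 ± 3.61) stood above Pdgfrb (19.6 ± 4.53).

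**Figure D1:**
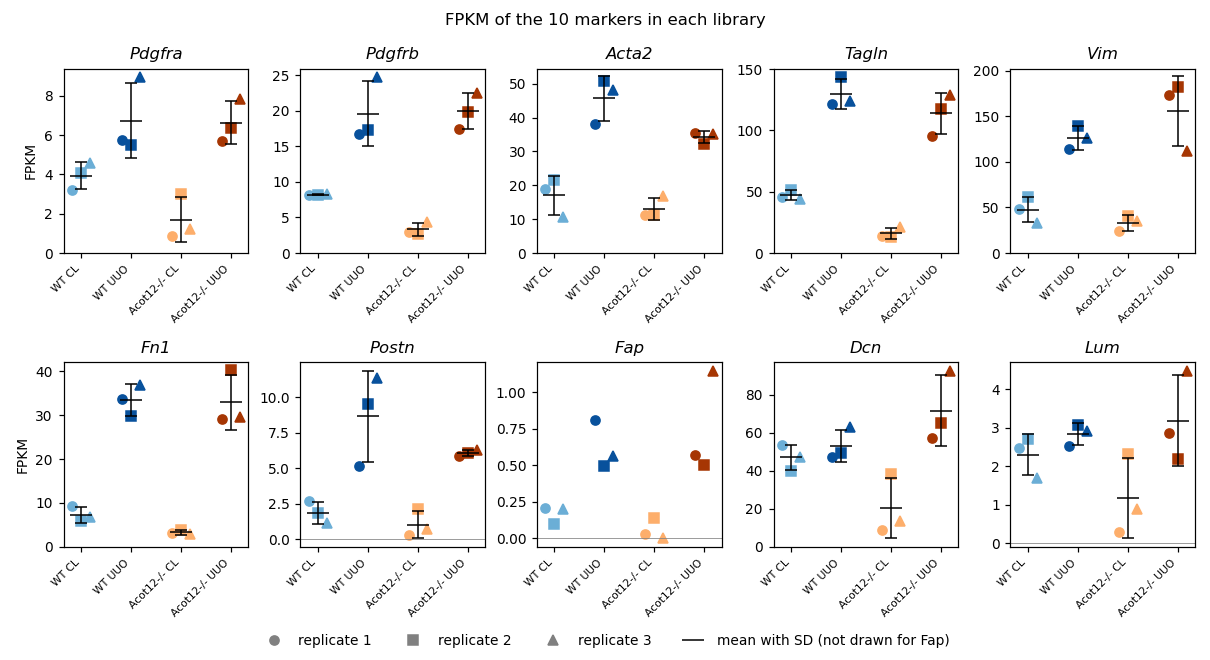
FPKM of the 10 markers (linear axes, one panel a gene) in the 3 libraries of each group, with a symbol for each replicate number and the mean with its SD except for Fap. Fn1, Tagln and Pdgfrb in UUO lay above CL in both genotypes, whereas Dcn and Lum of WT UUO overlapped WT CL.

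The first question was which markers differed between the obstructed and the contralateral kidney. In WT mice 6 of the 9 markers tested were called higher in UUO (limma on log2(FPKM + 1), Benjamini-Hochberg adjusted p under 0.05), and Pdgfra, Dcn and Lum were not called. Over all 13243 genes tested in WT kidneys, 23.6% were called higher and 47.5% in either direction. In Acot12-/- mice all 9 were called higher, against 26.6% of all genes called higher and 53.7% called in either direction. The median difference of the 9 was 1.42 in WT and 2.00 in Acot12-/- mice on the log2 scale, beside 0.01 and −0.01 over all genes tested. Without regard to a test, the UUO libraries lay wholly above the CL libraries for 8 of the 10 in WT (35.5% of all genes tested) and 9 of the 10 in Acot12-/- mice (27.8%). Without Acot12-/- CL replicate 2 the 9 tested were again called higher in Acot12-/- mice (29.5% of all genes), with a median difference of 2.25, no marker's groups overlapped, and the ratio of mean FPKM moved by over 1.5 times for 5 of the 10, Pdgfra, Postn, Dcn, Lum and Fap. Taking libraries of the same number as a pair of kidneys, UUO exceeded CL in 6 of 6 pairs for 8 of the 10 markers (29.3% of all genes tested) and in 5 of 6 for Dcn and Lum. Fap stayed below the minimum of 1 FPKM in 3 libraries and was not in the fit. In bulk cortex a rise in the number of cells of a type and a rise in RNA per cell cannot be told apart.

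**Figure D2:**
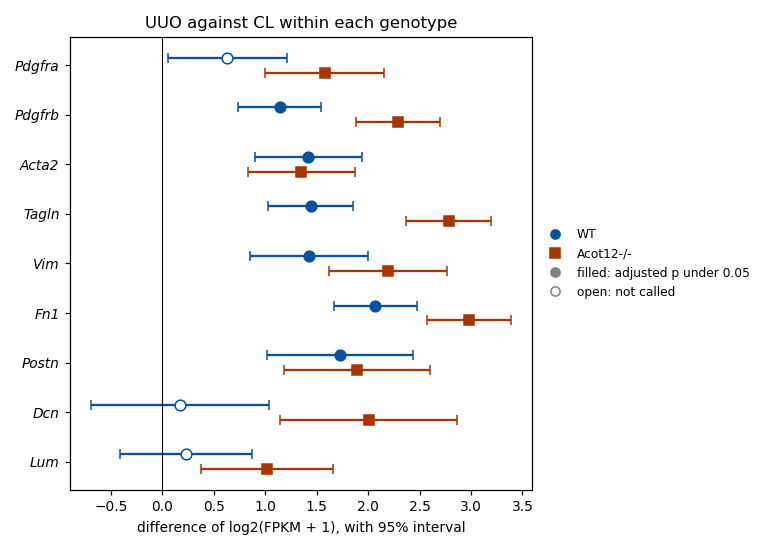
Difference of log2(FPKM + 1) between UUO and CL for the 9 markers tested, with 95% intervals, in WT (circles) and Acot12-/- mice (squares); filled symbols passed an adjusted p under 0.05. The 3 open symbols are Pdgfra, Dcn and Lum in WT, and the squares of Tagln, Pdgfrb and Dcn lie farthest to the right of their circles.

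Pdgfrb encodes the receptor of pericytes and interstitial fibroblasts for PDGF-B and PDGF-D. Its FPKM were 8.10, 8.22 and 8.33 in WT CL, 16.7, 17.3 and 24.8 in WT UUO; the mutant libraries had 2.93, 2.67 and 4.41 (CL) and 17.5, 19.9 and 22.6 (UUO). The groups of each genotype did not overlap. Mean levels differed 2.39-fold in WT (log2 difference 1.14, SE 0.19, adjusted p = 0.000402) and 6.00-fold in Acot12-/- mice (2.29, SE 0.19, adjusted p = 2.41e-06).

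Pdgfra (chromosome 5, 75152292 to 75198215 in GRCm38, plus strand, 23 exons) encodes the receptor that also binds PDGF-A and PDGF-C and marks resident fibroblasts. It had 3.19, 4.07 and 4.56 FPKM in WT CL, 5.78, 5.49 and 8.97 in WT UUO; the mutant libraries had 0.866, 3.00 and 1.20 (CL) and 5.72, 6.35 and 7.87 (UUO). Both UUO groups lay above their CL groups, and replicate 2 of Acot12-/- CL was 2.50 times the higher of its fellow libraries. In WT the difference was 0.63 (SE 0.26) and missed the threshold (adjusted p = 0.0675). It passed when libraries were paired by replicate number, an inferred pairing (adjusted p = 0.0392 with that pair as a block). It also passed without Acot12-/- CL replicate 2 (0.0111) or replicate 1 (0.0496), in the fit of the WT libraries alone (0.0198) and with all libraries scaled to 1 total (0.000633). In Acot12-/- mice Pdgfra was 3.93-fold higher in UUO (log2 difference 1.58, SE 0.26, adjusted p = 0.000346), and 6.42-fold higher without CL replicate 2 (1.91, SE 0.20, adjusted p = 2.90e-05).

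All 4 PDGF ligand genes were tested. In WT mice 2 were called higher in UUO and none lower: Pdgfb rose from 7.58 ± 1.38 to 43.0 ± 2.40 FPKM (log2 difference 2.37, adjusted p = 4.88e-05) and Pdgfa from 13.4 ± 0.881 to 28.9 ± 2.48 FPKM (1.05, adjusted p = 0.00199). In Acot12-/- mice 2 were called higher and 1 lower (none lower without Acot12-/- CL replicate 2), with differences of 2.17 for Pdgfb (adjusted p = 4.86e-05) and 1.22 for Pdgfa (adjusted p = 0.000564). Per kilobase, Pdgfb and its receptor gene Pdgfrb had mean levels of 7.58 and 8.21 FPKM in WT CL and of 43.0 and 19.6 FPKM in WT UUO.

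Promoter sequence from RefSeq (GRCm38.p6) was at hand for 4 of the 10 markers, Acta2, Pdgfra, Postn and Vim, as 5 windows of 250 bases before a transcript start. The windows of Acta2 and Vim overlap annotated exons, and the Pdgfra window and both Postn windows do not. The Pdgfra window and the Postn window next to the annotated gene start are shown. The 2 genes differed in how far UUO parted from CL in WT (1.71-fold in mean FPKM and not called for Pdgfra, 4.62-fold and called for Postn). Capitals mark TATAAA on the strand shown. The Pdgfra window lies at chr5:75152001-75152250 and the Postn window at chr3:54360857-54361106, both on the plus strand, 5′ to 3′.
Pdgfra: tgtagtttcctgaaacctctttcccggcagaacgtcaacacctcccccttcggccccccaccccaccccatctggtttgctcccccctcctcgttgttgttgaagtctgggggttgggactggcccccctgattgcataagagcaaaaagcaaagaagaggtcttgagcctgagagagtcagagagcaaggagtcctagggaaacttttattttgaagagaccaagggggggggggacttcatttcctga
Postn: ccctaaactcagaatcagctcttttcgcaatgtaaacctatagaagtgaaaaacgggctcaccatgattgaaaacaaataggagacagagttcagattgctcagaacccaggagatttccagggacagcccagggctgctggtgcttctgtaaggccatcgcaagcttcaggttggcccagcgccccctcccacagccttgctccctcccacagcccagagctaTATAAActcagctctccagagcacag
TATAAA, searched on both strands, was found in the Postn window shown 26 to 21 bases before the start and in the Vim window 32 to 27 bases before it. The other Postn window, at chr3:54359017-54359266, had none. The motif was found in 12.4% of 32851 promoter windows of this length. The CArG box, the motif of serum response factor in contractile genes, was searched only in its strict form CCWWWWWWGG, where W is A or T. This form had no match in the 5 windows and matched 1.47% of all windows. Sites that depart from it were not searched, so their presence in the windows is not known. CATTCC, the core of TEAD motifs, matched in the Acta2 window on the strand opposite to the gene and in 12.6% of all windows. GGGCGG, an Sp1 core, matched no marker window and 32.7% of all windows. These are matches of letters in the windows searched and nothing more.

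Acta2 (chromosome 19, 34241090 to 34255590, minus strand, 9 exons) encodes smooth muscle α-actin, the usual marker of myofibroblasts. Its FPKM were 18.9, 21.4 and 10.6 in WT CL, 38.1, 50.8 and 48.2 in WT UUO; the mutant libraries had 11.2, 11.2 and 16.7 (CL) and 35.4, 32.3 and 35.0 (UUO). UUO was separate from CL in both genotypes, and the 2 CL groups overlapped. Mean levels were 2.69-fold higher in WT UUO (log2 difference 1.42, SE 0.24, adjusted p = 0.000496) and 2.63-fold higher in Acot12-/- UUO (1.35, SE 0.24, adjusted p = 0.000499).

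Tagln (chromosome 9, 45929619 to 45936058, minus strand, 5 exons) encodes transgelin, an actin-binding protein of smooth muscle. It had 45.9, 51.8 and 43.9 FPKM in WT CL, 122, 144 and 124 in WT UUO; the mutant libraries had 13.8, 13.0 and 21.1 (CL) and 95.9, 117 and 129 (UUO). The 3 Acot12-/- CL libraries were the lowest of the 12, and the UUO groups overlapped. UUO exceeded CL 2.75-fold in WT (log2 difference 1.44, SE 0.19, adjusted p = 0.000105) and 7.14-fold in Acot12-/- mice (2.78, SE 0.19, adjusted p = 7.82e-07).

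Of 22 further genes of smooth muscle and the calponin family, 17 were tested. In WT mice 9 were called higher in UUO and none lower, with a median log2 difference of 0.73, and in Acot12-/- mice 13 were called higher and none lower, with a median of 1.08. Tpm4, a tropomyosin gene, rose from 74.7 ± 7.48 to 211 ± 16.3 FPKM in WT (adjusted p = 7.08e-05). Actg2, which encodes enteric smooth muscle actin, rose from 0.860 ± 1.10 to 8.82 ± 8.52 FPKM with a wide spread (adjusted p = 0.00353). Myl9, a myosin light chain gene, had 87.5 ± 0.748 FPKM in WT CL and 82.9 ± 14.9 in WT UUO (adjusted p = 0.725, and called higher at 0.0122 with all libraries scaled to 1 total), and it rose from 38.3 ± 12.0 to 80.1 ± 5.42 FPKM in Acot12-/- mice (adjusted p = 0.000680).

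Vim (chromosome 2, 13573927 to 13582826, plus strand, 9 exons) encodes vimentin, the intermediate filament protein of mesenchymal cells. Its FPKM were 48.6, 61.2 and 33.2 in WT CL, 113, 140 and 126 in WT UUO; the mutant libraries had 24.0, 40.6 and 34.7 (CL) and 173, 182 and 112 (UUO). The lowest UUO library was above the highest CL library in each genotype. The difference was 1.43 in WT (SE 0.26, adjusted p = 0.000936) and 2.20 in Acot12-/- mice (SE 0.26, adjusted p = 3.23e-05), or 2.65-fold and 4.70-fold in mean FPKM.

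Of 9 other intermediate filament and lamin genes 5 were tested. All 5 were called higher in WT UUO and 4 in Acot12-/- UUO, and none was lower. Des, the desmin gene of muscle and pericytes, went from 6.71 ± 1.59 to 10.5 ± 0.696 FPKM in WT (adjusted p = 0.0360) and from 2.61 ± 1.11 to 9.22 ± 1.33 in Acot12-/- mice (adjusted p = 8.18e-05). Nes, the nestin gene, rose from 8.37 ± 1.43 to 16.3 ± 2.71 FPKM in WT (adjusted p = 0.00516).

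Fn1 (chromosome 1, 71585520 to 71653200, minus strand, 46 exons) encodes fibronectin, an early component of a scar's matrix. It had 9.31, 5.89 and 6.68 FPKM in WT CL, 33.7, 29.7 and 36.9 in WT UUO; the mutant libraries had 3.13, 3.87 and 2.82 (CL) and 29.1, 40.2 and 29.6 (UUO). Its groups were far apart, with the lowest UUO library more than 3 times the highest CL library in either genotype. Of the 9 markers tested it had the largest difference of log2(FPKM + 1) in each genotype, 2.07 in WT (SE 0.19, adjusted p = 1.12e-05, 4.58-fold in mean FPKM) and 2.98 in Acot12-/- mice (SE 0.19, adjusted p = 4.58e-07, 10.1-fold). By the ratio of mean FPKM, Postn was higher in WT (4.62-fold).

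Postn (chromosome 3, 54361109 to 54391037, plus strand, 22 exons) encodes periostin, a matricellular protein secreted by activated fibroblasts. It had 2.68, 1.83 and 1.12 FPKM in WT CL, 5.14, 9.49 and 11.4 in WT UUO; the mutant libraries had 0.299, 2.14 and 0.699 (CL) and 5.87, 6.09 and 6.31 (UUO). UUO was above CL throughout, with a wide range in WT UUO and a narrow one in Acot12-/- UUO. The difference was 1.73 in WT (SE 0.33, adjusted p = 0.00110) and 1.89 in Acot12-/- mice (SE 0.33, adjusted p = 0.000422). On this scale a fold of a gene near 1 FPKM is understated, and mean FPKM differed 4.62-fold and 5.82-fold, the latter 12.2-fold without Acot12-/- CL replicate 2 (log2 difference 2.25, adjusted p = 8.37e-05).

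Among 21 tested genes of matricellular and elastic fibre proteins, 16 were called higher and 1 lower in WT UUO, and 19 were called higher and none lower in Acot12-/- UUO. The median log2 differences were 1.09 and 1.66. Cyr61, which encodes a matricellular protein, rose from 14.1 ± 5.89 to 90.9 ± 29.2 FPKM in WT (log2 difference 2.63, adjusted p = 0.000314), Tnc, the tenascin C gene, from 0.876 ± 0.295 to 7.92 ± 1.45 (2.25, adjusted p = 1.65e-05) and Thbs2, the thrombospondin 2 gene, from 1.10 ± 0.0476 to 8.07 ± 1.27 (2.10, adjusted p = 2.10e-06). The gene called lower was Tnxb, the tenascin X gene, with 1.29 ± 0.0498 FPKM in WT CL and 0.464 ± 0.310 in WT UUO (adjusted p = 0.00828, and 0.0748 with all libraries scaled to 1 total). Of the 10 integrin genes whose products bind fibronectin or periostin, 7 were called higher and none lower in WT, and 6 higher and 1 lower in Acot12-/- mice. Itga5, which encodes the fibronectin receptor subunit α5, went from 2.03 ± 0.324 to 5.09 ± 0.437 FPKM in WT (adjusted p = 0.000217) and from 1.06 ± 0.216 to 5.57 ± 1.05 in Acot12-/- mice (adjusted p = 4.66e-06).

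Fap (chromosome 2, 62500943 to 62574075, minus strand, 26 exons) encodes fibroblast activation protein, a prolyl peptidase on the surface of activated fibroblasts. It was listed at 0.211, 0.098 and 0.203 FPKM in WT CL, 0.811, 0.495 and 0.561 in WT UUO; the mutant libraries had 0.027, 0.140 and 0 (CL) and 0.568, 0.503 and 1.15 (UUO). Every UUO library was above every CL library. In fragments this was 7, 3 and 7 in WT CL, 47, 26 and 32 in WT UUO; the mutant libraries had 1, 5 and 0 (CL) and 32, 23 and 60 (UUO). Pooled within groups, Fap had 0.431 fragments per 1000000 of the library size used in the scaling (95% exact Poisson interval 0.251 to 0.691) in WT CL, 1.58 (1.29 to 1.91) in WT UUO, 0.133 (0.0488 to 0.289) in the mutant CL group and 1.89 (1.56 to 2.26) in the mutant UUO group, intervals that cover counting error only. An exact permutation test of log2(FPKM + 1) over 6 UUO and 6 CL libraries gave a two-sided p = 0.0021645, and within each genotype p = 0.1, the smallest that 3 against 3 libraries allow. The test took the libraries of both genotypes as independent and did not use the pairing by replicate number.

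Of 4 tested genes of the same peptidase family, 1 was called higher in WT UUO (2 higher and 2 lower without Acot12-/- CL replicate 2) and none in Acot12-/- UUO, where 2 were called lower. Prep, which encodes prolyl endopeptidase, went from 9.04 ± 0.854 to 15.6 ± 0.501 FPKM in WT (adjusted p = 0.00244) and had 13.2 ± 2.18 and 13.9 ± 2.27 FPKM in Acot12-/- CL and UUO (adjusted p = 0.733).

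Dcn (chromosome 10, 97479609 to 97518143, plus strand, 8 exons) encodes decorin, a small leucine-rich proteoglycan that coats collagen fibrils and is made by resident fibroblasts. Its FPKM were 53.5, 40.1 and 47.4 in WT CL, 47.0, 49.4 and 62.9 in WT UUO; the mutant libraries had 8.65, 38.3 and 13.7 (CL) and 57.4, 65.0 and 92.8 (UUO). WT CL and WT UUO overlapped, while the Acot12-/- groups did not. The WT difference was 0.17 with a 95% interval of −0.69 to 1.03 (SE 0.40, adjusted p = 0.743), and the Acot12-/- difference was 2.00 with 1.14 to 2.87 (SE 0.40, adjusted p = 0.00109). In Acot12-/- mice mean FPKM differed 3.54-fold, and 6.41-fold without CL replicate 2 (2.58, adjusted p = 1.34e-05).

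Lum (chromosome 10, 97565128 to 97572703, plus strand, 3 exons) encodes lumican, a proteoglycan of the same family, and starts 46.98 kb after the end of Dcn with no annotated gene between. It had 2.47, 2.72 and 1.70 FPKM in WT CL, 2.53, 3.07 and 2.91 in WT UUO; the mutant libraries had 0.290, 2.31 and 0.901 (CL) and 2.87, 2.20 and 4.48 (UUO). Groups overlapped in both genotypes, in Acot12-/- mice by CL replicate 2 and UUO replicate 2. The difference was 0.23 in WT (95% interval −0.41 to 0.87, adjusted p = 0.546) and 1.02 in Acot12-/- mice (0.38 to 1.66, adjusted p = 0.0114), the latter at 0.0544 without Acot12-/- UUO replicate 3. Without Acot12-/- CL replicate 2 the mutant groups did not overlap, and the ratio of mean FPKM was 5.35 in place of 2.73 (log2 difference 1.38, adjusted p = 0.000519). With all libraries scaled to 1 total, Dcn (0.89, adjusted p = 0.0485) and Lum (0.76, adjusted p = 0.0160) were called higher in WT too, and in that scaling the median of all genes rose by 0.62.

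The other small leucine-rich proteoglycan genes were called in both directions. Of 8 tested, 1 was called higher and 2 lower in WT UUO, where 47.5% of all genes tested were called in either direction. In Acot12-/- UUO 3 were called higher (5 without Acot12-/- CL replicate 2) and 1 lower, where 53.7% of all genes were called in either direction in the main fit. Bgn, the biglycan gene, rose from 86.8 ± 8.55 to 177 ± 20.3 FPKM in WT (adjusted p = 0.000505) and from 34.0 ± 5.18 to 177 ± 25.8 in Acot12-/- mice (adjusted p = 1.19e-06). Omd, which encodes osteomodulin, went from 5.98 ± 0.403 to 2.30 ± 0.0970 FPKM in WT (adjusted p = 0.0114) and Fmod, which encodes fibromodulin, from 3.41 ± 0.665 to 1.31 ± 0.488 (adjusted p = 0.0128); neither passed when libraries were scaled to 1 total (0.137 and 0.116).

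Further markers of the interstitium were taken from lists of fibroblast, pericyte and mesenchymal transcription factor genes. Of 9 other fibroblast markers 5 were called higher in WT and 6 in Acot12-/- UUO, none lower. Thy1, a surface protein of fibroblasts and T cells, rose most, from 4.39 ± 1.40 to 35.4 ± 4.79 FPKM in WT (log2 difference 2.78, adjusted p = 5.20e-06) and from 1.25 ± 0.248 to 29.0 ± 7.39 in Acot12-/- mice (3.71, adjusted p = 3.81e-07). Of 7 pericyte markers 4 were called higher and 2 lower in WT, and 5 higher and 1 lower in Acot12-/- mice. Cspg4, the NG2 proteoglycan gene, rose from 2.12 ± 0.144 to 5.39 ± 0.501 FPKM in WT (adjusted p = 0.000975), whereas Kcnj8 fell from 6.68 ± 1.61 to 3.86 ± 0.728 and Abcc9 from 2.15 ± 0.426 to 1.02 ± 0.178 (adjusted p = 0.0110 and 0.00655, and 0.872 and 0.361 with all libraries scaled to 1 total); these 2 encode the parts of 1 potassium channel. Of 10 mesenchymal transcription factor genes 5 were called higher in WT and 9 in Acot12-/- UUO, none lower. Tcf21, expressed in stromal progenitors and podocytes, rose from 17.8 ± 7.44 to 41.2 ± 10.1 FPKM in WT (adjusted p = 0.00320) and from 9.53 ± 0.458 to 56.1 ± 7.42 in Acot12-/- mice (adjusted p = 2.16e-05). With all libraries scaled to 1 total, 75 of the 95 genes of the related lists were called higher in WT UUO and none lower, among them 10 of 10 transcription factor, 15 of 17 smooth muscle and 3 of 8 proteoglycan genes.

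**Figure D3:**
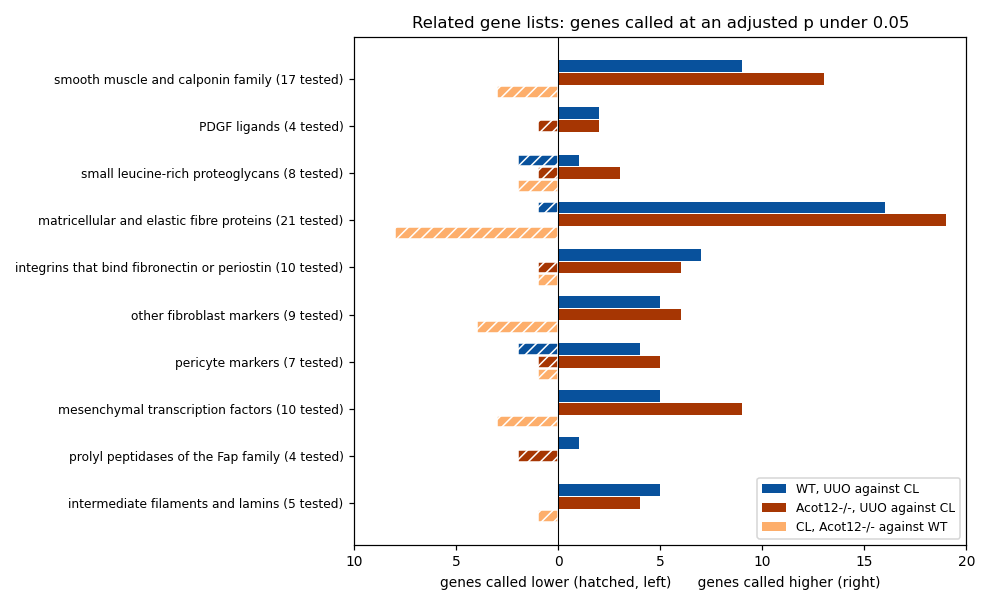
Genes of 10 related lists called at an adjusted p under 0.05, as bars to the right for higher and hatched bars to the left for lower, in WT UUO against CL, Acot12-/- UUO against CL and Acot12-/- CL against WT CL, with the number tested beside each list. Matricellular and elastic fibre genes gave the longest bars, 16 and 19 higher in UUO and 8 lower in Acot12-/- CL.

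The second question was whether the loss of Acot12 was accompanied by other marker levels in the contralateral kidney. All 9 markers tested had lower fitted levels in Acot12-/- CL than in WT CL, with differences from −1.53 to −0.33 and a median of −0.94 (0.01 over all genes). Of these, 3 passed the test, Tagln, Pdgfrb and Fn1, against 3.36% of all genes called lower and 4.48% in either direction. For 5 of the 10, Tagln, Pdgfrb, Fn1, Pdgfra and Dcn, the 3 mutant libraries lay wholly below the 3 WT libraries (9.73% of all genes tested).

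Tagln fell to 0.339 of its WT CL level, from 47.2 ± 4.11 to 16.0 ± 4.49 FPKM (log2 difference −1.53, SE 0.19, adjusted p = 0.00275). Pdgfrb was at 0.406 of its WT level, 3.33 ± 0.936 against 8.21 ± 0.117 FPKM (−1.11, SE 0.19, adjusted p = 0.00895). Fn1 was at 0.449, 3.28 ± 0.539 against 7.29 ± 1.79 FPKM (−0.94, SE 0.19, adjusted p = 0.0161). These 3 calls drew on the spread of all 4 groups. When the 6 CL libraries were fitted alone, no marker was called (adjusted p 0.0586 for Tagln, 0.0761 for Pdgfrb and 0.114 for Fn1), and only 1 of 13243 genes was. The Fn1 call was also lost without WT CL replicate 1 (0.0726), without Acot12-/- CL replicate 1 (0.0634) and with all libraries scaled to 1 total (0.0618).

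The other 6 markers missed the threshold. Dcn had 20.2 ± 15.9 against 47.0 ± 6.72 FPKM (−1.43, SE 0.40, adjusted p = 0.0663) and Pdgfra 1.69 ± 1.15 against 3.94 ± 0.696 (−0.95, SE 0.26, adjusted p = 0.0678). Lum (−0.70, 95% interval −1.34 to −0.06), Postn (−0.56, −1.27 to 0.15), Vim (−0.50, −1.08 to 0.07) and Acta2 (−0.33, −0.85 to 0.19) had adjusted p from 0.239 to 0.555. Fap had 6 fragments in the 3 mutant and 17 in the 3 WT CL libraries.

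The mutant CL libraries were divided among themselves, and the markers fell into 2 sets by how replicate 2 stood. For Pdgfra, Postn, Dcn, Lum and Fap, 5 of the 10, replicate 2 had at least 2 times the FPKM of each of replicates 1 and 3 (4.59% of all genes tested). Relative to the WT CL mean, replicate 2 was at 0.763 for Pdgfra, 1.14 for Postn, 0.815 for Dcn and 1.01 for Lum, and the mean of replicates 1 and 3 at 0.263, 0.266, 0.238 and 0.259. For Tagln and Pdgfrb, in contrast, replicate 2 was at 0.275 and 0.325 and the others at 0.370 and 0.446, so all 3 libraries were low. Fn1 was low in all 3 as well, at 0.531 and 0.408. Acta2 and Vim of the mutant libraries reached into the WT range.

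**Figure D4:**
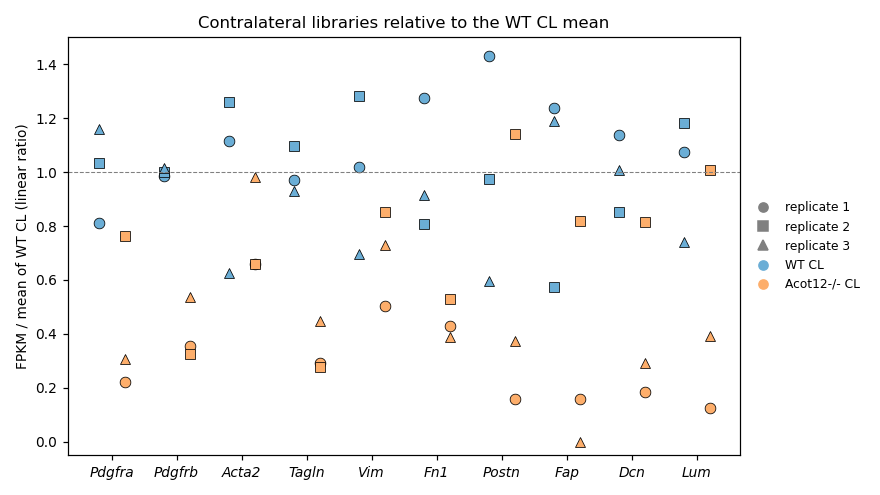
FPKM of each CL library divided by the mean of WT CL (linear ratio, dashed line at 1) for the 10 markers, with blue symbols for WT, orange for Acot12-/- and a shape for each replicate. For Pdgfra, Postn, Fap, Dcn and Lum the orange square, replicate 2, lies apart from the orange circle and triangle, while for Tagln, Pdgfrb and Fn1 all orange symbols lie below the blue ones.

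The median coefficient of variation of the 10 markers was 48.0% in Acot12-/- CL (29.7% over all genes tested), and 23.8%, 15.4% and 17.8% in WT CL, WT UUO and Acot12-/- UUO (11.9%, 9.22% and 13.0%). Without replicate 2 of Acot12-/- CL, 7 markers were called lower than in WT CL: the 3 above and Dcn (−2.00, adjusted p = 0.00140), Pdgfra (−1.27, 0.00406), Lum (−1.06, 0.0129) and Postn (−0.92, 0.0444). In that fit 10.5% of all genes were called lower and 22.1% in either direction.

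Genes of the related lists were also called in this comparison, and more often lower than higher. Called lower were 8 of 21 matricellular and elastic fibre genes, 4 of 9 other fibroblast markers, 3 of 10 mesenchymal transcription factors, 3 of 17 smooth muscle genes, 2 of 8 proteoglycan genes, and 1 each of the pericyte, integrin and intermediate filament lists, and none of the 10 lists held a gene called higher. Without Acot12-/- CL replicate 2, 41 of the 95 genes of these lists were called lower, among them 6 proteoglycan, 5 integrin and 6 transcription factor genes, and 6 in 5 lists were called higher, among them Fmod (adjusted p = 0.0223), Cspg4 (0.0292) and Prep (0.0135). In the fit of the CL libraries alone none of the 95 was called. Bgn had 34.0 ± 5.18 against 86.8 ± 8.55 FPKM (−1.33, adjusted p = 0.00319) and Prelp, a proteoglycan gene, 1.95 ± 0.308 against 6.43 ± 1.05 (−1.33, adjusted p = 0.00238). Ctgf, which encodes connective tissue growth factor, had 17.5 ± 3.31 against 53.6 ± 11.4 FPKM (−1.56, adjusted p = 0.0140), and Thy1 1.25 ± 0.248 against 4.39 ± 1.40 (−1.23, adjusted p = 0.0119). The adjusted p of these 4 genes in the fit of the CL libraries alone were 0.0586 to 0.0797.

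**Figure D5:**
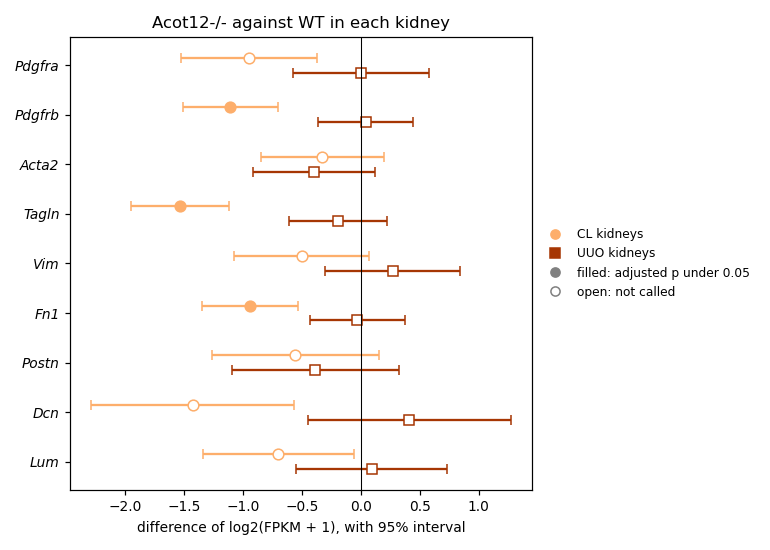
Difference of log2(FPKM + 1) between Acot12-/- and WT for the 9 markers tested, with 95% intervals, in CL (circles) and UUO kidneys (squares); filled symbols passed an adjusted p under 0.05. The filled circles are Tagln, Pdgfrb and Fn1, and all 9 intervals of the UUO kidneys include 0.

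The third question was whether the obstructed kidneys of the genotypes differed. No marker was called (limma, 0 of 9), and none had an unadjusted p under 0.05, against 0.0151% of all genes called (2 of 13243) and 2.36% with an unadjusted p under 0.05. Differences ran from −0.40 to 0.41 and their median was −0.00 (0.00 over all genes). For Fn1 the difference was −0.03 (95% interval −0.44 to 0.38), for Pdgfrb 0.04 (−0.36 to 0.44) and for Tagln −0.19 (−0.61 to 0.22). The widest intervals were those of Dcn (0.41, −0.45 to 1.27), Postn (−0.39, −1.10 to 0.32) and Lum (0.09, −0.55 to 0.73). Pdgfra lay at −0.00 (−0.58 to 0.58) and Vim at 0.27 (−0.31 to 0.84).

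Acta2 was the 1 marker of the 10 whose UUO libraries did not overlap between genotypes, with 45.7 ± 6.68 FPKM in WT and 34.2 ± 1.71 in Acot12-/- kidneys, against 6.48% of all genes that lay wholly lower in this way. Its fitted difference was −0.40 (95% interval −0.92 to 0.12, adjusted p = 1). Under the 20 alternative settings it ran from −0.57 to −0.32, with no adjusted p under 0.846. Summed over the 10 markers, the libraries had 385 to 449 FPKM in WT UUO and 423 to 472 in Acot12-/- UUO, ranges that overlap. None of the 10 related lists held a gene called between the genotypes in UUO kidneys.

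The last question was whether the step from CL to UUO differed in size between genotypes, which the interaction term tests. The step was larger in Acot12-/- mice for 8 of the 9 markers, and none was called (limma, 5 of 9 with an unadjusted p under 0.05, against 0.106% of all genes called and 10.5% with an unadjusted p under 0.05). The values were 1.83 for Dcn (SE 0.56, adjusted p = 0.204), 1.34 for Tagln (SE 0.27, adjusted p = 0.0746), 1.15 for Pdgfrb (SE 0.26, adjusted p = 0.108), 0.95 for Pdgfra (SE 0.37, adjusted p = 0.379) and 0.91 for Fn1 (SE 0.26, adjusted p = 0.176). Acta2 (−0.07) and Postn (0.17) had the values nearest to 0. With libraries paired by replicate number, Tagln (adjusted p = 0.0233) and Pdgfrb (0.0379) were called, and 203 of 13243 genes (1.53%) in place of 14. Without Acot12-/- CL replicate 2, 5 markers and 6.80% of all genes were called (Tagln, Pdgfra, Pdgfrb, Fn1 and Dcn, the last at 2.41 and adjusted p = 0.00888), and without Acot12-/- CL replicate 3, Tagln and Pdgfrb (0.0139 and 0.0294) and 1.16% of all genes. The interaction, the CL comparison and the UUO steps share libraries, so these results are not separate evidence. Among the related genes the interaction was called for Prelp (1.33, adjusted p = 0.0458), a call that was lost when any 1 of 10 of the 12 libraries was left out (0.0593 to 0.167) and with all libraries scaled to 1 total (0.270). With libraries paired by replicate number it was called for 8 of the 95 genes of the related lists, Prelp and 7 more (Bgn, Snai1, Cd34, Efemp2, Myl9, Kcnj8 and Cnn2, adjusted p 0.0189 to 0.0494).

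Ratios of 2 markers within a library, with 0.1 FPKM added to each value, were compared between 6 UUO and 6 CL libraries, 4 in all. The log2 ratio of Pdgfra to Pdgfrb was −1.56 ± 0.0739 in UUO and −1.07 ± 0.705 in CL (difference −0.48, two-sided exact permutation p = 0.113, adjusted over the 4 ratios 0.450). With 1 FPKM in place of 0.1 added to each value the difference was −0.61 (exact permutation, adjusted p = 0.00866), and that of Postn to Fn1 was −0.72 (0.0303) in place of −0.27 (0.537). An added 1 FPKM draws the log2 ratio of low genes towards 0. In Acot12-/- CL Pdgfra had 0.866 to 3.00 and Postn 0.299 to 2.14 FPKM, below their UUO levels. These 2 differences over both genotypes thus depend on the added value and are not read as a shift of the ratios. In WT alone, with 0.1 FPKM added, Pdgfra to Pdgfrb was −1.06 ± 0.237 in CL and −1.54 ± 0.0922 in UUO. These WT groups did not overlap (exact permutation p = 0.1, the smallest that 3 against 3 libraries allow). The Acot12-/- CL libraries had −1.65, 0.16 and −1.79. Without replicate 2, at 0.16, they lay below those of Acot12-/- UUO (−1.63 to −1.51). Acta2 to Dcn had means of −1.51 ± 0.625 in CL and −0.22 ± 0.225 in UUO of WT mice, with no overlap, and of −0.37 ± 1.21 and −1.04 ± 0.354 in CL and UUO of Acot12-/- mice, where the groups overlapped. That overlap came from Acot12-/- CL replicate 2 (−1.77, against 0.37 and 0.28 in replicates 1 and 3). Without it the mutant CL libraries lay above mutant UUO (−1.40 to −0.70), the reverse of the order in WT. Over both genotypes, which moved in opposite directions, Acta2 to Dcn differed by 0.32 (exact permutation p = 0.515, adjusted 0.537). Lum to Dcn differed by −0.12 (exact permutation p = 0.537, adjusted 0.537). The Pdgfra to Pdgfrb ratio had a narrow range in UUO libraries of either genotype, −1.64 to −1.46.

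Across the 12 libraries the 9 tested markers were correlated in all 36 pairs (Pearson r 0.60 to 0.98, median 0.88), and each of the 9 was called between UUO and CL in at least 1 genotype. After the group means were removed r ran from −0.35 to 0.86 with a median of 0.20. The highest were Dcn with Pdgfra (0.86), Dcn with Lum (0.86), Dcn with Postn (0.77) and Lum with Postn (0.74), the genes that stood high in Acot12-/- CL replicate 2. Over the 9 libraries of the other groups the highest were Pdgfra with Pdgfrb (0.89) and Pdgfrb with Dcn (0.77). These r are descriptions over libraries that share their group and the library size that goes with it.

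The genes most like a marker across the 12 libraries, by Pearson r of log2(FPKM + 1), were Mrc2, Lrp1 and Efemp2 for Pdgfrb (0.99 each) and Sema6d, Ddr2 and Cnrip1 for Pdgfra (0.99, 0.98 and 0.98). For Tagln they were Hmha1, Arhgef25 and Ccdc102a (0.99 each), for Fn1 Was, Tbc1d2b and Rerg (0.99 each) and for Postn Ifrd1, Cdh11 and Efna5 (0.97 each). Lum had the lowest such values (Hmgn3, 0.95).

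Markers of other cell types moved in the same comparisons. The 10 endothelial markers were called lower in Acot12-/- CL than in WT CL for 8 of 10 (10 of 10 without Acot12-/- CL replicate 2, where 10.5% of all genes were, and none in the fit of the CL libraries alone), and their summed FPKM were 195 to 310 (CL) and 164 to 204 (UUO) in WT and 69.4 to 102 (CL) and 189 to 243 (UUO) in Acot12-/- libraries, with none of them at 0. In UUO 7 were called higher in Acot12-/- mice, and 1 higher and 4 lower in WT, where with all libraries scaled to 1 total 4 were called higher and none lower and the median turned from −0.33 to 0.34. Their interaction had a median of 1.33 and was called for 1, Tie1 (named after its values were seen, 1.38, adjusted p = 0.0287). It was called for 6 with libraries paired by replicate number, for 8 without Acot12-/- CL replicate 2 and for none with all libraries scaled to 1 total. The 10 macrophage markers were called higher in UUO for 9 in WT and 10 in Acot12-/- mice, and lower in Acot12-/- CL than WT CL for 3 (6 without Acot12-/- CL replicate 2). Their sums were 141 to 160 (CL) and 630 to 749 (UUO) in WT and 51.6 to 109 (CL) and 674 to 853 (UUO) in Acot12-/- libraries, with none at 0. Of 6 lymphocyte markers tested 4 were lower in Acot12-/- CL (with the CL libraries alone, none of these and none of the macrophage markers), where the list summed to 3.60 to 4.29 FPKM against 11.2 to 18.8 in WT CL, 39.6 to 42.7 in WT UUO and 17.6 to 32.6 in Acot12-/- UUO, and Cd3d, Cd4 and Ms4a1 were at 0 in at least 1 of the Acot12-/- CL libraries. Injured tubule markers were called higher in UUO for 8 of 8 in both genotypes (sums 1079 to 3110 and 15714 to 17475 FPKM in WT CL and UUO, 1833 to 5080 and 17136 to 18820 in Acot12-/- CL and UUO), and none was called between genotypes. Of 9 tested proximal tubule markers 8 were lower in WT UUO and 9 in Acot12-/- UUO; Kap of this list is at 0 in some CL libraries, and the sum ran from 2807 to 192565 FPKM in WT CL. Of 8 distal nephron and collecting duct markers 8 and 6 were lower (sums 1937 to 3176 and 425 to 1020 FPKM in WT CL and UUO). No podocyte marker of 8 was called between genotypes in CL (sums 98.8 to 128 and 118 to 167 FPKM). The 10 fibroblast markers themselves summed to 158 to 197 in WT CL and 65.1 to 117 in Acot12-/- CL libraries. The part of these cell types in the marker differences was not tested.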

How the data were processed

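Kidney cortex RNA was made into directional libraries (NEBNext Ultra II) and sequenced; reads were trimmed, mapped and normalised for the authors by a service provider. The submitters' processing notes name mm10 and edgeR, and the aligner is not given in the sources used here. The deposited values are FPKM per gene symbol, a unit derived from the values, whose low entries are whole multiples of 1 fragment per effective transcript length. The library size given comes from these steps and may be a normalised one. The members and lists were chosen with earlier results of these data known. Gene positions are from GENCODE vM21 (GRCm38), in which 95.5% of the 23183 symbols were found.

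Genes with at least 1 FPKM in at least 3 libraries were tested, leaving out 28 that were listed at 0 in a library although another of the group had at least 10 FPKM. limma 3.58.1 in R 4.3.3 was fitted to log2(FPKM + 1) with 4 group means and a variance trend. Scripts were tested on simulated data. Named were the 10 markers, Acot12 and, of each list, the 3 called genes with the largest WT change, up to 2 against the majority and up to 3 called between genotypes, and genes with the highest r to a marker. FPKM ratios are of group means. Ratios of 2 markers had 0.1 FPKM added.

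The labels do not say that CL and UUO libraries of the same number came from the same mouse, so this pairing is an inference. Residuals of CL and UUO libraries of the same number correlated at 0.134, 0.364 and 0.335 in WT and 0.322, 0.186 and 0.318 in Acot12-/- mice. Between different numbers the highest value was 0.139 in WT, above that of WT number 1, and −0.0748 in Acot12-/- mice. Across genotypes the same numbers gave −0.303, 0.272 and 0.392 in UUO and −0.128, −0.0136 and 0.0569 in CL. UUO numbers 2 and 3 thus reached the values seen within genotypes, and UUO libraries of different numbers reached 0.451 across genotypes. The paired fit used duplicateCorrelation (0.209). Alternatives tried were no filter, a pseudocount of 0.1, zero-listed genes kept, median-ratio factors, equal totals, no trend, the inferred pair as a block, only the groups compared and each library left out. Added after seeing the data was the inferred pair as a fixed term.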

Additional observations from a re-analysis of the deposited data

Results flagged for a closer look

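The step from CL to UUO differed between genotypes, by the interaction term of limma, for 3 genes named here: Prelp, a small leucine-rich proteoglycan gene (difference of the steps 1.33, adjusted p = 0.0458), Hmha1, the gene most like Tagln (1.30, 0.0458), and Tie1, an endothelial receptor gene (1.38, 0.0287). Prelp had 6.43 ± 1.05 (CL) and 5.90 ± 1.13 FPKM (UUO) in WT mice, and 1.95 ± 0.308 (CL) and 5.87 ± 0.295 (UUO) in the mutant (mean ± SD, n = 3). Hmha1 had 3.56 ± 0.451 and 10.1 ± 0.776 FPKM in WT, and 0.757 ± 0.284 and 9.46 ± 0.699 in the mutant. Tie1 had 8.28 ± 1.40 and 7.97 ± 0.945 FPKM in WT, and 3.38 ± 0.281 and 10.04 ± 0.448 in the mutant. Each difference of the steps stayed above 0 under the alternatives run (1.10 to 1.68 for Prelp, 1.01 to 2.04 for Hmha1, 1.18 to 1.59 for Tie1). Each of the 3 calls was lost when any 1 of 10 of the 12 libraries was left out (adjusted p 0.0581 to 0.167), the exceptions being Acot12-/- CL replicates 2 and 3, and also without the filter on low values (0.0861 for Prelp and Hmha1, 0.0674 for Tie1) and with all libraries scaled to 1 total (0.270 each). The calls of Prelp and Hmha1 were lost without the variance trend (0.0521 each), and that of Prelp with median-ratio size factors (0.0512). All 3 held with the inferred pair of kidneys as a block (0.0101 to 0.0143). With that block the interaction was also called for Bgn (0.0189), Snai1 (0.0224), Cd34 (0.0274), Efemp2 (0.0331), Myl9 (0.0442), Kcnj8 (0.0453) and Cnn2 (0.0494).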

How the results depend on the processing

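Calls of the 9 tested markers in UUO against CL were the same in 181 of 189 results of the alternatives in WT (8 were newly called: Pdgfra, Dcn and Lum) and in 188 of 189 in Acot12-/- mice. Scaling every library to the same total FPKM raised the median of all genes by 0.62 in WT and 0.44 in Acot12-/- mice, moved it by −0.15 between genotypes in UUO and by −0.17 in the interaction, and lowered the share of lower calls from 50.3% to 12.4% in WT and from 50.5% to 20.3% in Acot12-/- mice. In CL kidneys the number of markers called between genotypes was 3, was 0 with only the groups compared, and ran from 2 to 7 when each library was left out. The interaction called 0 markers, 2 with the inferred pair as a replicate block, 1 with the block as a fixed effect and 0 to 5 when each library was left out. With a pseudocount of 1 the ratios of Pdgfra to Pdgfrb (−0.61) and Postn to Fn1 (−0.72) passed, though this pseudocount draws log2 ratios of genes near 1 FPKM towards 0. With equal totals Myl9 (0.63, adjusted p = 0.0122) and Prelp (0.52, 0.0248) turned from lower to called higher in WT UUO. Marker differences that turned their sign missed the threshold in every setting run. Between genotypes in UUO these were Pdgfra (0.00151 with a pseudocount of 0.1, 0.00426 with median-ratio factors, −0.11 to 0.20 with a library left out), Pdgfrb (−0.13 with equal totals, −0.0591 to 0.21), Fn1 (−0.18 to 0.0488) and Lum (−0.0476 with equal totals, −0.12 to 0.27), and in the interaction Acta2 (−0.26 to 0.22) and Postn (−0.0664 with equal totals, −0.13 to 0.53). The replicate block changed no call of a marker other than those of Pdgfra in WT and of Tagln and Pdgfrb in the interaction. Low counts limit Fap, with 0 to 7 fragments in a CL library.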
